A study of Homo sapiens with 6 samples.

Results

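The mitochondrial ribosome is built from RNA of the mitochondrial genome and from proteins encoded in the nucleus, and 78 genes for those proteins were followed here in a human leukaemia line treated with the compound 8p. They were taken as every protein-coding gene whose symbol starts with MRPL or MRPS followed by a digit, 78 of the 58735 genes in the deposited count table. By name, 49 belong to the large subunit (MRPL) and 29 to the small subunit (MRPS). The genes lie on 21 chromosomes, with at most 8 on one of them, chromosome 17. Messenger RNA was sequenced from 6 cultures of MOLM-13, an established line grown from an acute monocytic leukaemia and labelled wild type. Of these, 3 were untreated controls and 3 received 8p at 3.5 nM, against a stated IC50 of 7 nM. All were kept for 48 h, and the submitters describe the cultures as independent biological replicates. The submitters describe 8p as a synthetic compound that blocks both RET and CDK kinases; whether the controls received its solvent is not stated in the labels.

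Mitochondrial ribosomes sit at the inner membrane and translate the few messenger RNAs that the mitochondrial genome encodes, all of them for subunits of the respiratory chain and ATP synthase. Their small subunit decodes the message and their large subunit forms peptide bonds and passes the product through an exit tunnel. Some of their proteins have a bacterial counterpart and others are particular to mitochondria, and all are made in the cytosol and imported. Leukaemic myeloid cells are known to depend on mitochondrial translation.

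With 8p, 71 of the 77 tested genes fell and none rose. A call is an adjusted p under 0.05 in edgeR's quasi-likelihood test, with Benjamini-Hochberg adjustment over all 13822 genes tested. The test called 36.9% of all tested genes lower (41.6% of the protein-coding ones) and 37.9% higher. Of the 77, 0 were higher at an unadjusted p under 0.05, and DESeq2 and limma-voom also called 0 higher. Their median log2 fold change was -1.21, with quartiles of -1.501 and -0.81, while the median of all genes tested was 0.03 and that of protein-coding genes -0.07. Called falls of at least 2-fold were found for 50 of the 77, against 17.5% of all genes tested, and of at least 4-fold for 7, against 5.38%. Among protein-coding genes the same shares were 19.1% and 5.76%. All 3 libraries with 8p lay below all 3 controls for 71 genes, against 38% of all genes tested (42.7% of protein-coding ones), and above them for 1 gene, against 38.9%. These values are relative to each library's total after TMM scaling, and in bulk RNA fewer cells of a type and less RNA per cell cannot be told apart.

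**Figure D1:**
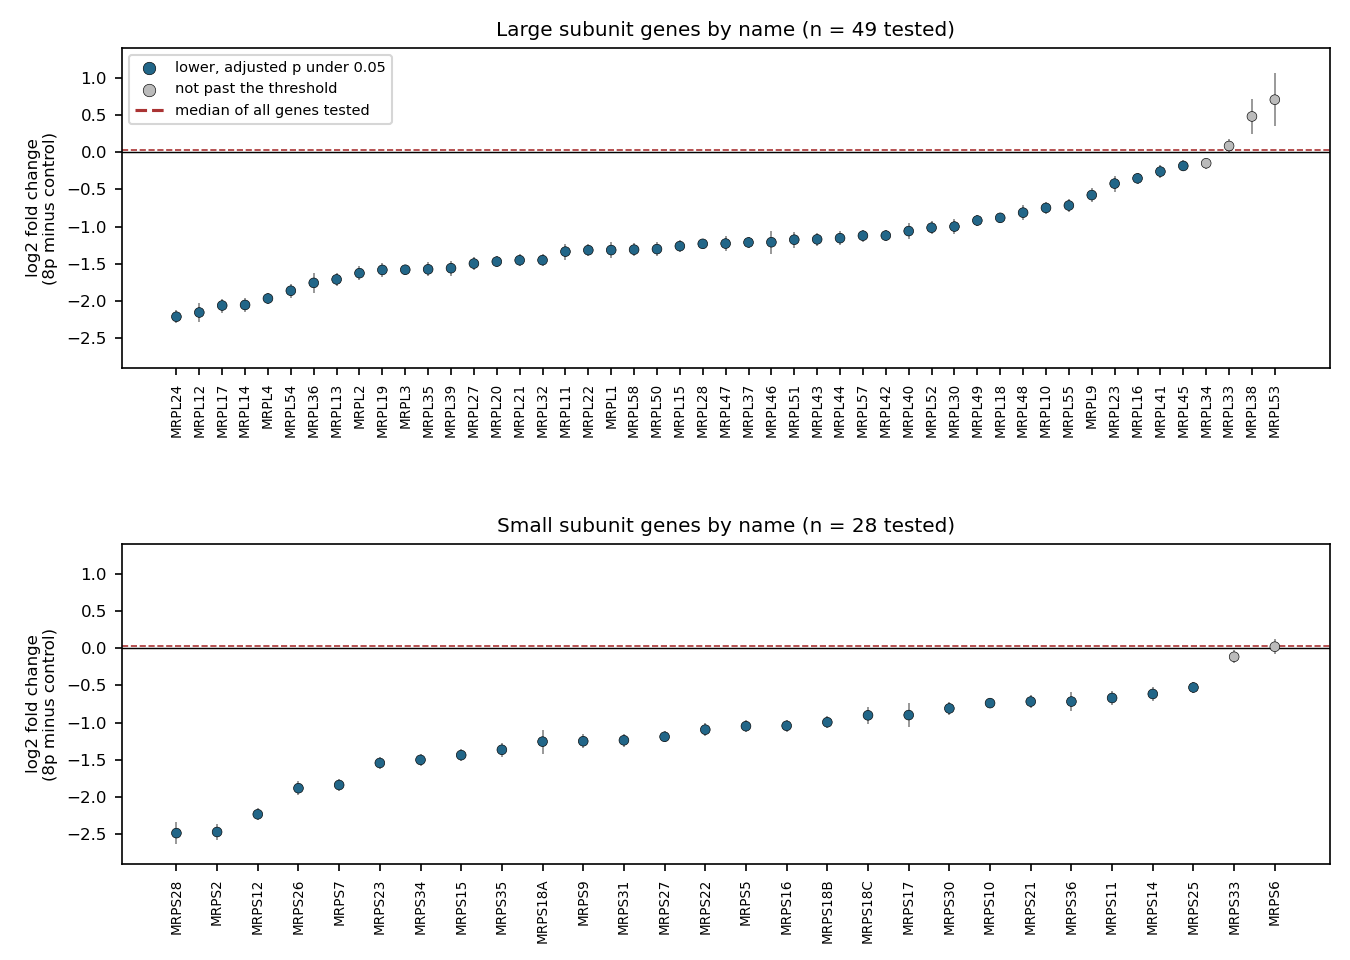
Log2 fold change (8p minus control, vertical axis) of each tested gene, with its standard error as a bar, for the 49 large subunit genes (top) and the 28 small subunit genes (bottom). Dark points passed the threshold; the 45 large and 26 small subunit genes that did all lie below 0, and MRPL34, MRPL33, MRPL38, MRPL53, MRPS33 and MRPS6 are grey.

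Summed over all 78 genes, the share of a library's counts was 0.676%, 0.677% and 0.726% in the controls and 0.313%, 0.324% and 0.311% with 8p. The groups did not overlap, and the treated mean of 0.316% ± 0.00717 was 0.457 times the control mean of 0.693% ± 0.0285 (SD, n = 3 each). Control replicate 3 was the highest control for 61 of the 77 genes, whereas no library with 8p was the highest for more than 27. Replicate spread was small for most of these genes, with a median coefficient of variation of 6.43% in controls and 6.59% with 8p, and a median standard error of 0.09 on the log2 scale.

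Control libraries held 18834611 to 23485628 counts and treated ones 14972069 to 16210861. Treated replicate 2 stood apart from the other treated libraries, with a chi-square per degree of freedom near 22 against both, while the other treated pair had 3.0. Without it, 71 genes fell and MRPL53 passed the threshold as higher. Transcripts of the mitochondrial genome took 1.64 to 1.91% of control counts and 6.42 to 10% with 8p, replicate 2 being the lowest of the treated libraries. All 10 myeloid markers were detected, and their summed level, in CPM (counts scaled by library total and TMM factor), went from 2039 to 2175 in controls to 5307 to 5903 with 8p. Of these 10, 7 rose, with LYZ the most abundant (1040 to 3732 CPM), MPO and CD33 fell (-0.64 and -0.50) and ITGAM did not pass the threshold. Of the other lineages, CD8A and KLRD1 (2 of 9 T and NK cell markers, summed level 34.5 to 36.9 in controls and 34.3 to 45.1 with 8p) and PAX5 (1 of 6 B cell markers, 28.9 to 34.3 and 40.5 to 53.1) were at 0. So were EPCAM, KRT19, COL1A2 and DCN (4 of 8 epithelial and fibroblast markers, 9.74 to 10.3 and 31.7 to 42.0, a rise carried by COL1A1, from 0.542 to 31.8 CPM, while KRT18 fell by 1.47 on the log2 scale) and 5 of 9 erythroid and megakaryocytic markers, HBB, HBA1, HBA2 and PF4 among them (summed level 1.42 to 1.98 and 2.90 to 3.30). The part of these differences in the results below was not tested.

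Short sequence elements, which the choice of genes did not use, were searched in the promoters of these genes. RefSeq promoters (GRCh38.p14, from 250 bases before the first listed start to 50 after it) were found for 70 of the 78, and 7 motifs were searched on both strands. The core of the ETS family site, CCGGAAG, to which the GABP factor binds, was in 29 of the 70 (41.4%) and in 14.4% of 14897 protein-coding promoters. The long form of the YY1 site (its letters are the capitals in the 9 windows below) was in 10 (14.3%) and in 1.4% of protein-coding promoters. Among 63 promoters of cytosolic ribosomal protein genes, the ETS core was in 33.3% and this YY1 element in 0, so a frequent ETS core is not particular to the mitochondrial set. The NRF1 site, with any base in its middle position, was in 8 (11.4%, against 8.62%) and the E-box CACGTG, to which MYC binds, in 7 (10%, against 8.94%). The CCAAT box CCAAT was in 20 (28.6%, against 36.4%), the TATA element TATAAA in 3 (4.29%, against 9.38%) and the cyclic AMP response element in 0 (against 2.59%). In the 3 genes with both (MRPS10, MRPS18A and MRPL38) the YY1 and ETS matches did not overlap. Mean GC content was 61.4% in the members' promoters and 61.6% in the protein-coding ones. In 9 of the 10 with the YY1 element it lay after the start on the coding strand, and the ATG inside it was an annotated start codon, so that the element runs across the first codon of the protein. An element placed after the start on that strand was found in 12.9% of the members' promoters and 0.993% of protein-coding ones. The exception was MRPL36, with the element on the other strand before the start. The windows of those 9 genes are shown because they place 1 sequence at 1 point of 9 ribosomal genes; capitals mark the motif, read 5′ to 3′ on the strand of the gene.
MRPS30, chr5:44808951-44808980, plus strand: tcgcgggcaAAGATGGCGGCggccaggtgt
MRPL22, chr5:154941093-154941122, plus strand: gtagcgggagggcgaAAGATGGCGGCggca
MRPS18B, chr6:30617854-30617883, plus strand: gcgtacgtcAAGATGGCGGCgtctgtatta
MRPS10, chr6:42217832-42217861, minus strand: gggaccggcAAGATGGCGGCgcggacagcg
MRPS18A, chr6:43687762-43687791, minus strand: aggtttttgAAGATGGCGGCcctcaaggct
MRPS24, chr7:43869478-43869507, minus strand: gcttggcccAAGATGGCGGCctccgtgtgc
MRPL50, chr9:101398575-101398604, minus strand: atctcatcgAAGATGGCGGCgcgatctgtg
MRPL46, chr15:88467360-88467389, minus strand: ggagaacgaAAGATGGCGGCgcccgtaagg
MRPL38, chr17:75904858-75904887, minus strand: gccggagggAAGATGGCGGCgccctggtgg

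Of the 29 promoters with the ETS core, 25 held it from 100 bases before the start onwards, a share of 86.2% against 75.6% for protein-coding promoters with the core. The next windows set genes with large falls (MRPS12, MRPS26, MRPL54, MRPL27) beside genes that did not pass the threshold (MRPL33, MRPL53, MRPS33); all 7 hold the core within 100 bases of the start, and capitals mark it as CCGGAAG or, on the other strand, CTTCCGG.
MRPS12, chr19:38930928-38930957, plus strand: acggatagcgcCCGGAAGaggctagaagct
MRPS26, chr20:3046004-3046033, plus strand: tccccgcgccgCTTCCGGggcacggtggcg
MRPL54, chr19:3762650-3762679, plus strand: gccactgacgtCTTCCGGaaacgtgcactt
MRPL27, chr17:50373174-50373203, minus strand: acttttcgagaCCGGAAGtgagtgatcgaa
MRPL33, chr2:27771700-27771729, plus strand: cgggccgtgccCCGGAAGcagttgttgttg
MRPL53, chr2:74472662-74472691, minus strand: ctgcacgagttCTTCCGGggcggaggtcac
MRPS33, chr7:141014934-141014963, minus strand: agagggcgggcCTTCCGGgacgagggcgcg

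Genes with the NRF1 site included MRPL45 (-0.18) and MRPS33 (-0.12, not past the threshold), which changed little. MRPL17 and MRPL14, which fell more than 4-fold, hold no ETS core, and their windows show the NRF1 site.
MRPL17, chr11:6683402-6683431, minus strand: aggctctgatGCGCATGCGCaaacacgttc
MRPL14, chr6:44127412-44127441, minus strand: tgggcctggcGCGCAGGCGCtaggaagagg

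The median log2 fold change was -1.17 for the 29 tested genes with the ETS core and -1.20 for the 40 without it. For the YY1 element it was -1.21 with (9 tested genes) and -1.17 without (60), for the NRF1 site -1.19 with (8) and -1.18 without (61), and for the E-box -0.92 with (7) and -1.18 without (62). For the CCAAT box it was -1.20 with (20) and -1.12 without (49), and for the TATA element -1.44 with (3) and -1.17 without (66). These are descriptions with no test, and a match is not evidence that a factor is bound.

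Among large subunit genes, 45 of 49 fell, 34 of them at least 2-fold and 4 at least 4-fold, with a median log2 fold change of -1.23. MRPL24, a protein at the tunnel exit (chr1:156737303-156741590), was at 69.6, 73.2 and 77.0 CPM in the controls and 16.6, 14.98 and 15.9 with 8p. The groups stood far apart, and the difference of -2.21 ± 0.09 (log2, SE; adjusted p = 5.38e-12 in edgeR) was the largest in the large subunit. MRPL12, the stalk protein that recruits translation factors and has been reported to bind the mitochondrial RNA polymerase (chr17:81703357-81707526), went from 57.0, 49.2 and 64.9 CPM to 10.6, 14.4 and 13.3 CPM. Its control values varied more than those of MRPL24, but every treated value was below every control, with a difference of -2.15 ± 0.13 and an adjusted p of 4.14e-10. MRPL12 shares 68.2% of its exon bases with the gene model AC139530.2, which has 0 counts in the table.

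MRPL17, on the rim of the exit tunnel (chr11:6680782-6683401), had 68.5, 74.2 and 72.5 CPM in controls and 17.8, 18.5 and 15.2 with 8p (-2.06 ± 0.09, adjusted p = 2.12e-11). MRPL14, at the face that meets the small subunit (chr6:44113454-44127457), had 90.01, 95.1 and 111 CPM in controls and 22.5, 23.9 and 24.9 with 8p (-2.05 ± 0.09, adjusted p = 2.36e-11). In both genes the highest treated library lay far below the lowest control. MRPL4, which reaches into the wall of the tunnel (chr19:10251901-10260045), went from 161, 164 and 170 CPM to 44.3, 38.3 and 44.1 CPM (-1.97 ± 0.08, adjusted p = 4.67e-12). MRPL54, a protein particular to mitochondria (chr19:3762664-3768575), went from 74.2, 73.5 and 86.1 to 20.0, 22.5 and 21.7 CPM (-1.86 ± 0.09, adjusted p = 6e-11). In neither gene did a treated library come near the controls.

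By position in the large subunit, the 3 stalk genes (MRPL10, MRPL11 and MRPL12) all fell, with MRPL10 at -0.75 and MRPL11 at -1.34. All 6 genes of the exit tunnel rim fell, with a median of -1.27, and ranged from MRPL24 to MRPL45, the protein that holds the ribosome to the inner membrane. MRPL45 fell least of all genes called, by 0.18 ± 0.07 on the log2 scale (adjusted p = 0.0337), from 95.3, 98.3 and 109 CPM to 85.1, 90.4 and 90.2 CPM. Its treated values were all below the controls but close to them, and its call was lost without control replicate 3 (adjusted p = 0.0588) and without treated replicate 1 (0.0833). Pseudogenes of MRPL45 held counts equal to 8.19% of its own. Of 7 genes of the central protuberance, the crest that faces the small subunit's head, 6 fell, with a median of -1.06. Among these, MRPL58, a peptidyl-tRNA hydrolase that frees stalled ribosomes (chr17:75012670-75021261), went from 70.3, 71.3 and 77.8 CPM to 32.1, 29.3 and 27.1 CPM (-1.31 ± 0.09, adjusted p = 1.96e-09).

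Large subunit genes with the highest level per kilobase in controls were MRPL15 and MRPL18, a protein of the central protuberance. MRPL15 (chr8:54135210-54147901) held 194 CPM per kilobase in controls and 80.9 with 8p, and its levels by library were 221, 214 and 259 CPM against 97.3, 94.3 and 97.5 CPM (-1.26 ± 0.08, adjusted p = 7.59e-10). MRPL18 (chr6:159789812-159798436) held 129 CPM per kilobase in controls and 69.7 with 8p, from 170, 173 and 187 CPM to 95.7, 95.4 and 96.6 CPM (-0.88 ± 0.07, adjusted p = 9.22e-09). The treated libraries of both were nearly equal to each other, and both genes kept a high rank although they fell.

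In the small subunit, 26 of 28 tested genes fell, 16 of them at least 2-fold and 3 at least 4-fold, with a median of -1.07. Without genes that overlap another gene holding at least 10% of their counts, medians were -1.25 in the small and -1.21 in the large subunit. The order of the medians thus depended on that choice. MRPS28 (chr8:79918717-80030289) fell most of the 77 mitochondrial ribosomal protein genes tested, from 30.9, 34.0 and 35.6 CPM to 4.86, 7.43 and 5.53 CPM (-2.49 ± 0.14, adjusted p = 3.51e-10). It shares 35.8% of its exon bases with the gene model AC036214.3 on the same strand, which has 0 counts. Another gene on that strand, AC036214.2, overlaps MRPS28 without shared exon bases and held 286 counts, against 2392 for MRPS28. MRPS2 (chr9:135499984-135504673), whose bacterial counterpart lies between the head and body of the subunit, went from 82.7, 82.6 and 89.8 to 16.2, 12.9 and 17.0 CPM (-2.47 ± 0.10, adjusted p = 8.38e-12). MRPS12, at the decoding centre (chr19:38930548-38933162), went from 154, 162 and 170 to 32.1, 34.2 and 37.1 CPM (-2.23 ± 0.08, adjusted p = 1.67e-12). In all 3 the highest treated value was far below the lowest control.

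MRPS26, a mitochondria-specific protein (chr20:3045945-3048254), had 107, 117 and 114 CPM in controls and 28.95, 34.7 and 27.7 with 8p (-1.88 ± 0.09, adjusted p = 4.4e-11). MRPS7, which lies in the head beside the path of the messenger RNA (chr17:75261674-75266373), had 92.1, 89.7 and 101 CPM in controls and 26.4, 26.4 and 26.2 with 8p (-1.84 ± 0.08, adjusted p = 1.52e-11). Its treated libraries were nearly equal, and 6.41% of its exon bases are shared with GGA3 on the other strand. MRPS23, also mitochondria-specific (chr17:57834781-57850056), had 105, 105 and 123 CPM in controls and 36.5, 38.0 and 39.7 with 8p (-1.54 ± 0.08, adjusted p = 1.71e-10). None of the 3 had overlapping groups.

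MRPS34 and MRPS18B had the highest control levels per kilobase in the small subunit. MRPS34 (chr16:1771890-1773155), which is needed to keep the small ribosomal RNA stable, was at 175 CPM per kilobase in controls and 61.8 with 8p, with 176, 188 and 212 against 66.4, 70.8 and 66.2 CPM by library (-1.501 ± 0.08, adjusted p = 1.19e-10). MRPS18B (chr6:30617709-30626395) was at 118 and 59.4 CPM per kilobase, with 213, 222 and 236 against 127, 104 and 106 CPM (-0.995 ± 0.08, adjusted p = 2.14e-08). Both were well apart between groups, and MRPS18B is 1 of 3 paralogs of a single bacterial protein. Of the other two, MRPS18A fell from 37.9, 35.0 and 36.2 to 18.8, 10.1 and 17.1 CPM (-1.26 ± 0.16, adjusted p = 3.76e-06), the treated replicate 2 being the low value. MRPS18C fell from 23.9, 22.6 and 25.2 to 13.2, 11.6 and 13.6 CPM (-0.90 ± 0.11, adjusted p = 3.48e-06), and it shares 40.2% of its exon bases with ABRAXAS1 on the other strand. MRPS18A shares 47.0% of its exon bases with RSPH9, a gene on the other strand with 62 counts.

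MRPS18A and MRPS30 have small subunit names but sit in the large subunit in structures of the ribosome. MRPS30 (chr5:44808925-44820428) went from 84.8, 80.2 and 96.9 to 47.3, 49.6 and 52.5 CPM (-0.81 ± 0.09, adjusted p = 4.55e-07). MRPS36, now assigned to the oxoglutarate dehydrogenase complex and renamed KGD4 (chr5:69217760-69230129), went from 26.0, 25.1 and 34.4 to 16.8, 16.7 and 18.4 CPM (-0.72 ± 0.13, adjusted p = 0.000101). Both fell without overlap between groups.

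**Figure D2:**
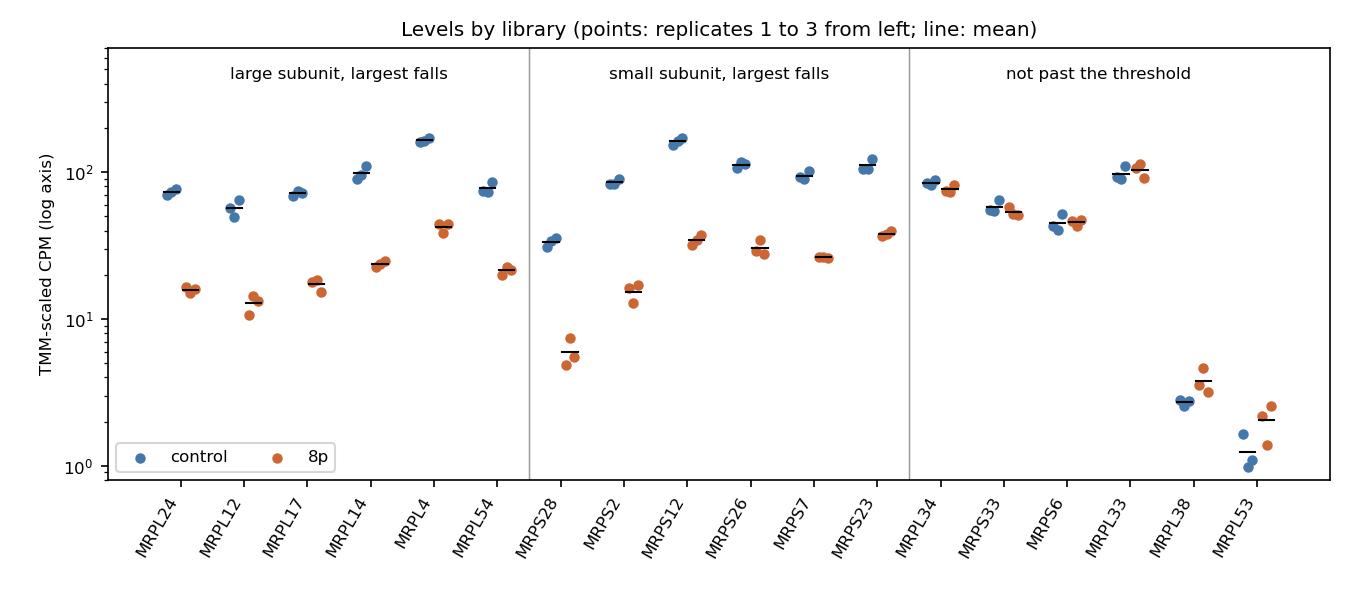
TMM-scaled CPM (log axis) in each of the 6 libraries for the 6 large and 6 small subunit genes with the largest falls and for the 6 tested genes not past the threshold; points are replicates 1 to 3 from left, lines are means of 3. In the first 12 genes every treated point is below every control, from 4.86 CPM for the lowest treated value of MRPS28 upwards, and in the last 6 the groups lie close together or, for MRPL38, the treated points are higher.

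Of the 77 tested genes, 6 did not pass the threshold. MRPL33, a small protein of the large subunit (chr2:27771717-27988087), was at 92.9, 90.2 and 110 CPM in controls and 106, 113 and 91.3 with 8p (0.08 ± 0.09, adjusted p = 0.428). MRPL34 (chr19:17292609-17306843) was at 84.5, 81.2 and 88.3 and at 74.2, 73.7 and 81.3 CPM (-0.15 ± 0.07, adjusted p = 0.0818), and its call appeared without control replicate 2 (adjusted p = 0.0496) and without treated replicate 3 (0.0396). DESeq2 also called MRPL34 lower (-0.21, adjusted p = 0.0248), as did edgeR with no filter on low counts (-0.26, adjusted p = 0.00579). In both MRPL33 and MRPL34 the groups overlapped. MRPS33 (chr7:141002610-141015228) was at 54.9, 54.6 and 64.2 and at 57.5, 51.7 and 51.1 CPM (-0.12 ± 0.09, adjusted p = 0.247). With no filter on low counts, edgeR called MRPS33 lower (-0.23, adjusted p = 0.0301). MRPS6 (chr21:34073224-34143034) was at 42.8, 40.1 and 51.8 and at 46.5, 42.8 and 47.2 CPM (0.02 ± 0.10, adjusted p = 0.863). Their libraries too were intermixed.

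MRPL38 and MRPL53 were the members with the largest positive values, and after MRPS24 they had the lowest control levels per kilobase. MRPL38, of the central protuberance (chr17:75898643-75905413), was at 2.78, 2.57 and 2.78 CPM in controls and 3.53, 4.62 and 3.17 with 8p (0.48 ± 0.24, adjusted p = 0.0801). It was the single member with all treated values above all controls. MRPL53, a mitochondria-specific protein (chr2:74471958-74473322), was at 1.64, 0.981 and 1.09 CPM in controls and 2.20, 1.38 and 2.56 with 8p (0.71 ± 0.36, adjusted p = 0.0844). Its groups overlapped, and without treated replicate 2 it passed the threshold (0.89, adjusted p = 0.0239). MRPS24 (chr7:43866558-43869893) had 5, 11 and 12 counts in the controls and 7, 8 and 5 with 8p, too few to be tested, so no fold change is given.

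Some of these genes share exon bases with a neighbour, and reads from the shared bases cannot be assigned to 1 gene where both lie on the same strand. For pairs on opposite strands this holds too unless counting used strand, which no source used here states. On the same strand, MRPL53 shares 45.2% of its exon bases with CCDC142, whose counts were 268% of its own, and MRPL33 shares 21.1% with BABAM2. MRPS6 shares 6.35% with SLC5A3. MRPL38 shares 37.5% with the gene model AC087289.3, which has 7 counts. MRPS24 shares 23.2% with URGCP-MRPS24, which has 0 counts. In all, 27 of the 78 overlapped a gene with counts of at least 10% of their own, and 23 shared exon bases with it. Of the 50 tested genes with no such overlap, 47 fell, with a median of -1.24. Genes whose partner held fewer counts, such as MRPL12 and MRPL38, stayed among these 50. Pseudogenes of the 78 genes held 1275 counts in 75 rows, 0.217% of the 586801 counts of the genes themselves. Of these, 859 belonged to MRPL45 and 252 to MRPS31, where they came to 6.09% of the gene's own counts.

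Large and small subunit genes fell to nearly the same share of their control level. Summed levels of the large subunit were 4245, 4275 and 4749 CPM in controls and 2009, 2030 and 2000 with 8p, a ratio of 0.455. Those of the small subunit were 2446, 2477 and 2687 CPM and 1168, 1122 and 1144 CPM, a ratio of 0.451. For both subunits the lowest control lay far above the highest treated library.

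Whether the balance between the subunits moved depended on the measure. The summed level per kilobase of the large subunit divided by that of the small was 1.97, 1.94 and 2.01 in controls and 2.11, 2.23 and 2.18 with 8p, so the groups did not overlap and the ratio of the means was 1.10. With counts not divided by length the ratio was 1.74, 1.73 and 1.77 in controls and 1.72, 1.81 and 1.75 with 8p, and the groups overlapped. The median level per kilobase of large over small subunit genes moved the other way, from 1.68, 1.71 and 1.70 to 1.33, 1.44 and 1.29. The summed ratio was also taken without genes that overlap another gene holding at least 10% of their counts. It went from 1.82 ± 0.03 to 2.18 ± 0.05 (SD, n = 3 each). With proteins placed by structure the summed ratio went from 2.13 ± 0.04 to 2.38 ± 0.05. With 3 libraries a group, an exact permutation test could not go below 0.10, and no test of the ratio was made.

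**Figure D3:**
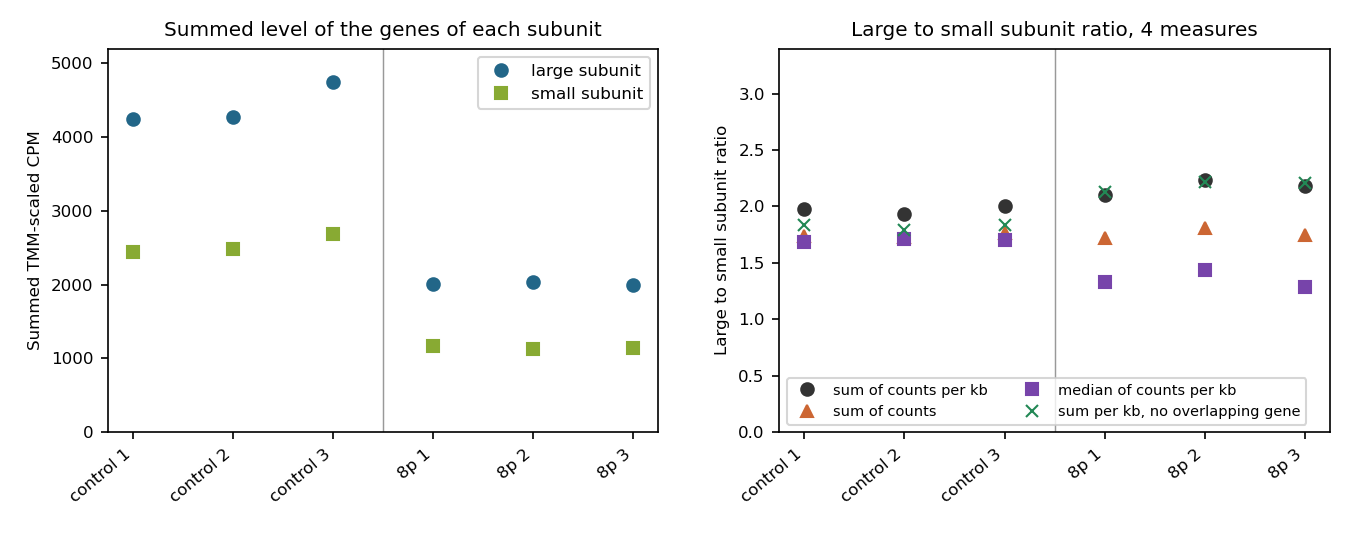
Left, summed TMM-scaled CPM of the 49 large subunit (circles) and 29 small subunit (squares) genes in each library. Right, ratio of large to small subunit by 4 measures in each library: the summed level per kilobase is higher with 8p (2.11 to 2.23 against 1.94 to 2.01), the summed counts overlap, and the median per kilobase is lower (1.29 to 1.44 against 1.68 to 1.71).

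Several large subunit genes of high level changed little, which was seen after their values were known. MRPL33, MRPL34, MRPL16, MRPL41 and MRPL45 were at 63.5, 50.2, 61.8, 60.6 and 59.1 CPM per kilobase in controls and at 67.2, 45.3, 48.4, 50.6 and 52.0 with 8p. MRPL16, which lies near the site of peptide bond formation, differed by -0.35 ± 0.08 (adjusted p = 0.000618) and MRPL41 by -0.26 ± 0.09 (adjusted p = 0.014). No small subunit gene with a control level above 50 CPM per kilobase differed by so little: MRPS21, the least changed of them, differed by -0.72 ± 0.08 (adjusted p = 1.18e-06).

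Genes with a bacterial counterpart and genes particular to mitochondria fell alike in number. In the large subunit, 27 of 29 with a counterpart fell (median -1.45) and 19 of 21 without one (median -1.12). In the small subunit, 13 of 14 with a counterpart fell (median -0.97) and 9 of 10 without one (median -1.21). These classes place MRPS30 and MRPS18A in the large subunit. Of the 3 MRPS18 paralogs, only MRPS18C was classed with a counterpart, and MRPS18A and MRPS18B were classed as particular to mitochondria. MRPL55, MRPS28 and MRPS36 were left out of these classes and all 3 fell. The order of the medians thus differed between the subunits, and no test was made of it.

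Control levels per kilobase spanned 0.740 to 194 CPM in the large subunit and 4.91 to 175 in the small among tested genes. Across the 77 genes, control level per kilobase and log2 fold change had a Spearman rho of -0.32, a description over genes that share the same libraries and depth. Among the 26 genes with the lowest control levels the median change was -0.95, among the next 26 it was -1.33 and among the 25 with the highest -1.23.

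**Figure D4:**
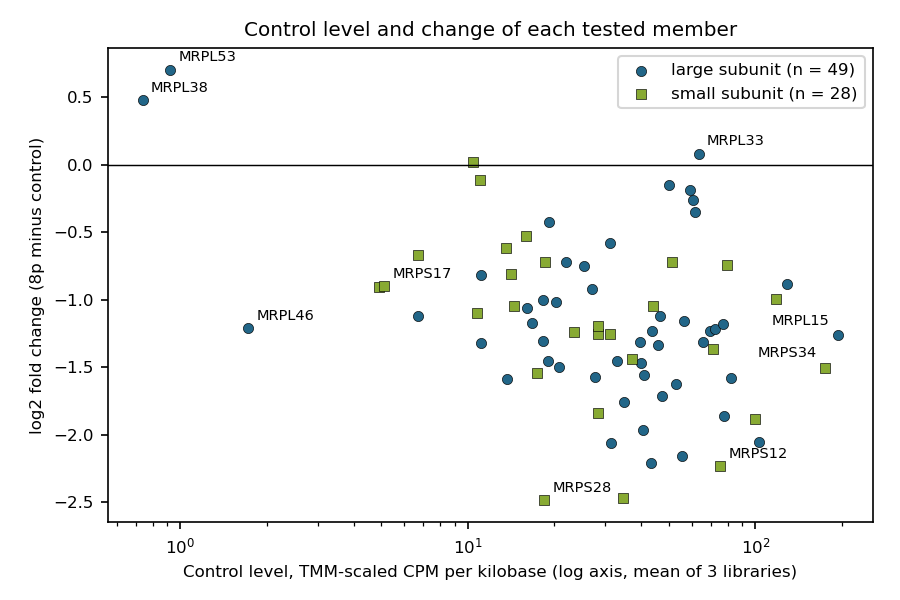
Log2 fold change (8p minus control) against mean control level in CPM per kilobase (log axis) for the 49 large (circles) and 28 small (squares) subunit genes tested. MRPL38 and MRPL53 lie alone at the low left end with values of 0.48 and 0.71, and MRPL33 is the highest point among genes above 50 CPM per kilobase.

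Genes that work with the mitochondrial ribosome were examined as lists, described by counts and medians with no test of a list. For comparison, 36.9% of all genes tested were called lower and 37.9% higher. All 5 ribosomal proteins with other names fell (median -0.95). Among them, GADD45GIP1, a large subunit protein, fell by 2.01 ± 0.11 (adjusted p = 1.12e-10), AURKAIP1 by 1.02 and CHCHD1 by 0.95, all on the log2 scale. Of 27 assembly and ribosomal RNA modification genes, 22 fell (81.5%) and 3 rose (median -0.98). MALSU1, which keeps the unfinished large subunit from joining the small one, went from 35.3, 37.9 and 44.6 to 8.52, 10.3 and 9.51 CPM (-2.05 ± 0.12, adjusted p = 4.31e-10). MRM1, a methyltransferase of the large ribosomal RNA, fell by 1.98 and RBFA, a small subunit assembly factor, by 1.97 on the log2 scale, while MTG1, YBEY and NOA1 rose by 0.92, 0.72 and 0.19.

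Of 14 translation factors, 10 fell (71.4%, against 36.9% of all genes tested) and 2 rose (median -0.84). TUFM, the elongation factor that brings aminoacyl-tRNA to the ribosome, went from 498, 550 and 553 to 209, 218 and 210 CPM (-1.33 ± 0.07, adjusted p = 9.05e-11). TSFM, its exchange factor, fell by 1.596 ± 0.14 (adjusted p = 5.86e-08) on the log2 scale. TACO1, needed to translate COX1, fell as well (-1.402 ± 0.09, adjusted p = 7.45e-10). MTRF1, a release factor, rose by 0.44 and OXA1L, the insertase that receives the new chains, by 0.21. Of 17 mitochondrial tRNA synthetases, 14 fell (82.35%) and 1 rose (median -0.90). LARS2, for leucine, went from 49.2, 57.2 and 48.0 to 13.04, 13.06 and 13.02 CPM (-1.98 ± 0.10, adjusted p = 7.12e-11), FARS2 fell by 1.503, and HARS2 rose by 0.35.

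Of 9 genes for mitochondrial transcription and DNA replication, 6 fell (66.7%, against 36.9% of all genes tested) and 1 rose (median -0.83). TFB2M, which opens promoters for the polymerase, fell by 1.83 ± 0.10 (adjusted p = 1.67e-10), TWNK, the helicase, by 1.61 and SSBP1 by 1.57 on the log2 scale. TFAM, which packs mitochondrial DNA, went from 114, 105 and 122 to 44.0, 49.6 and 47.9 CPM (-1.27 ± 0.08, adjusted p = 1.1e-09). POLRMT, the mitochondrial RNA polymerase, fell by 0.83 ± 0.07 (adjusted p = 5.58e-08). POLG2, the accessory subunit of the DNA polymerase, rose by 0.98 ± 0.09 (adjusted p = 4.97e-08).

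Transcripts of the mitochondrial genome went the other way: all 15 tested messenger and ribosomal RNAs rose, with a median of 1.98. MT-RNR1, the RNA of the small subunit, was at 582, 632 and 635 CPM in controls and 8339, 5475 and 7974 with 8p (3.56 ± 0.14, adjusted p = 3.53e-12). MT-RNR2, the RNA of the large subunit, was at 2567, 2580 and 2328 CPM and at 29580, 22910 and 28620 CPM (3.44 ± 0.11, adjusted p = 8.01e-13). The treated replicate 2 was the lowest treated value of both, yet far above the controls. MT-ATP8 rose by 2.91 ± 0.10 (adjusted p = 1.25e-12). The labels give 2 ways of enrichment, poly(A) capture and depletion of ribosomal RNA, and not the one used here, and copies of mitochondrial DNA in the nucleus can share these reads. With the mitochondrially encoded genes left out of the fit, 71 ribosomal protein genes were again called lower.

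Cytosolic ribosomal proteins did not share the fall: of 79 tested, 6 fell, 27 rose and 46 did not pass the threshold (median 0.12). The share that fell was 7.6%, against 36.9% of all genes tested. The rises were no more frequent than among all genes tested, of which 37.9% were called higher. RPS26 fell by 2.11 ± 0.08 (adjusted p = 1.88e-12), and RPL37 and RPS20 rose by 0.78 ± 0.08 (adjusted p = 3.13e-07) and 0.68 ± 0.10 (adjusted p = 1.28e-05) on the log2 scale; such genes have many processed copies that could split their reads. The summed level per kilobase of cytosolic over mitochondrial ribosomal proteins was 15.4, 15.9 and 15.7 in controls and 38.2, 35.9 and 37.9 with 8p. The groups were far apart, by a ratio of 2.39. Of 37 nuclear genes listed for complex I, the respiratory enzyme with the most subunits made by the mitochondrial ribosome, 28 fell and 3 rose. The list includes NDUFA4 (-1.06), whose place in complex I was not checked. The share that fell was 75.7%, against 36.9% of all genes tested, with a median of -0.87. NDUFS5, NDUFA6 and NDUFB7 fell by 1.86, 1.73 and 1.70. The summed level per kilobase of the complex I genes over that of the mitochondrial ribosomal proteins was 0.606, 0.631 and 0.637 in controls. With 8p it was 0.647, 0.638 and 0.651, so that the treated values lay just above the controls, by a ratio of 1.03.

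**Figure D5:**
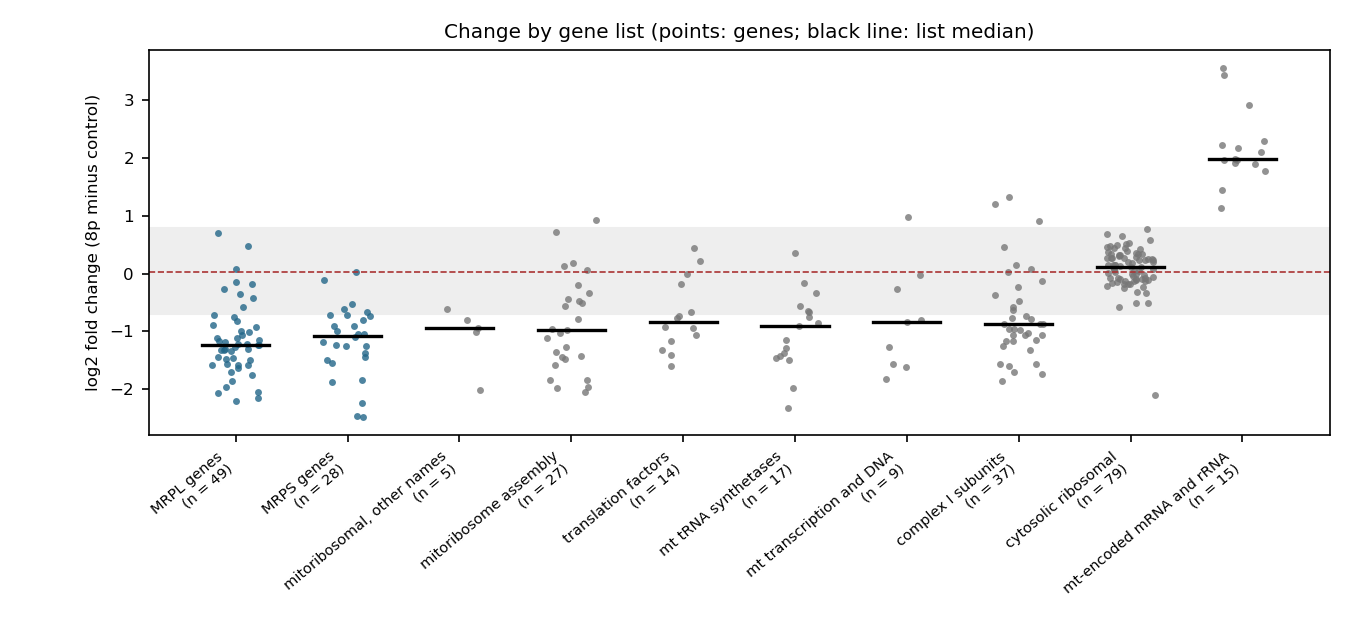
Log2 fold change (8p minus control) of each tested gene in 10 lists, with the list median as a black line, the median of all genes tested as a dashed line and their quartiles (-0.70 and 0.80) shaded. The medians of the large and small subunit genes are -1.23 and -1.07, that of cytosolic ribosomal proteins 0.12 and that of mitochondrially encoded RNAs 1.98.

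Among 10 nuclear regulators of mitochondrial genes, 3 of the 9 tested fell (33.3%, against 36.9% of all genes tested) and 2 rose, shares no higher than in the background. MYC, a transcription factor known to act on many genes of ribosome and mitochondrial biogenesis, went from 735, 747 and 687 to 145, 133 and 146 CPM (-2.35 ± 0.07, adjusted p = 3.41e-13). PPRC1, a coactivator of the same family as PPARGC1A, fell by 1.49 ± 0.11 (adjusted p = 5.01e-09), and GABPB1, the partner of the ETS protein GABPA, by 0.88 ± 0.10 (adjusted p = 7.75e-07). CREB1 rose by 0.99 ± 0.08 (adjusted p = 3.23e-08) and PPARGC1B by 0.24 ± 0.10 (adjusted p = 0.0485). GABPA, NRF1 and YY1, factors of 3 of the motifs searched, did not pass the threshold: GABPA differed by -0.18 ± 0.08 (adjusted p = 0.0524), NRF1 by -0.19 ± 0.10 (adjusted p = 0.0969) and YY1 by -0.05 ± 0.07 (adjusted p = 0.481). PPARGC1A was not tested, with no counts in 5 of 6 libraries.

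Mitochondrial ribosomal protein genes often start close to a gene on the opposite strand. A protein-coding start within 1000 bases upstream on the other strand was found for 17 of the 77 tested (22.1%), against 10.3% of 11500 protein-coding genes tested. MRPL46 and MRPS11 start 34 bases apart on chromosome 15 and both fell, by 1.21 ± 0.16 (adjusted p = 4.22e-06) and 0.67 ± 0.10 (adjusted p = 1.57e-05) on the log2 scale. MRPL36 (-1.76) starts 34 bases from NDUFS6 of complex I, which differed by -1.32. Of the 16 such neighbours that were tested, 6 fell and 7 rose, where 505 of 1031 neighbours of all protein-coding genes fell and 289 rose. The 6 include both MRPL46 and MRPS11, each the neighbour of the other, so that pair of family members is counted from both sides. MRPL57 (-1.12) lies 43 bases from SKA3, which ties kinetochores to the spindle (-3.35), whereas MRPS34 (-1.501) lies 52 bases from EME2 (1.04), MRPL47 (-1.23) 36 bases from NDUFB5 (0.47) and MRPL41 (-0.26) 665 bases from PNPLA7 (3.62). The paired genes thus moved both together and apart.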

How the data were processed

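RNA was sequenced from 6 MOLM-13 cultures, 3 untreated and 3 with 8p. The authors deposited 1 table of raw read counts per gene, with symbol, position and length; the submitters' processing notes name build hg38, the aligner HISAT2 2.0.5, the counter featureCounts 1.5.0-p3 and, for analysis, edgeR 3.22.5 with DESeq2 1.20.0. No source used here gives the strand setting. Positions of 58724 of the 58735 rows equalled GENCODE release 29.

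Counts were tested with edgeR 4.0.16 in R 4.3.3 (TMM, filterByExpr, quasi-likelihood F test, group as the only term, all 6 libraries, Benjamini-Hochberg over all genes tested, adjusted p under 0.05). The script was tested on simulated data in which few genes changed, up and down alike. In the real data 74.7% of genes tested were called, so that check does not cover scaling under so many changes. Standard errors are the log2 fold change over the root of F. Levels between genes were compared per kilobase of deposited gene length. The alternatives included DESeq2 1.42.0 and limma 3.58.1 (voom).

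Members and lists were chosen with earlier results of these data known. Full values are given for the 6 MRPL and 6 MRPS genes with the largest changes, the 2 of each with the highest control level per length, MRPL12, MRPL58, MRPS12, MRPS36, MRPS30 and the MRPS18 paralogs, and for genes not past the threshold; from other lists, for up to 3 called genes with the largest change and a few fixed regulators. Depth was 14972069 to 23485628 counts a library; low counts limit MRPS24, MRPL53 and MRPL38. Some genes of the lists are not reported here by name.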

Additional observations from a re-analysis of the deposited data

How the results depend on the processing

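The number of genes called lower stayed between 67 and 73 over all settings, and between 70 and 72 with any 1 library left out. None was called higher except under upper quartile scaling (3: MRPL33, MRPL38, MRPL53), with protein-coding genes alone (2: MRPL38, MRPL53) and, over the fits that left out 1 library, in 0 to 1 (MRPL53 without treated replicate 2). Upper quartile scaling moved the median of all genes from 0.03 to 0.22 and the share of lower calls to 40.6%; the medians became -1.04 for the large and -0.88 for the small subunit, and MRPL45 turned to 0.0025 (adjusted p = 0.976). With no filter on low counts the medians were -1.34 and -1.16. The small subunit's median was -0.99 with protein-coding genes alone. Without genes that overlap another gene holding at least 10% of their counts, a setting chosen after seeing the data, it was -1.25. There the large subunit's was -1.21, so the order of the subunit medians turned. The 8p to control ratio of the large to small subunit ratio, 1.10, was 1.01 without length and 0.797 with medians per kilobase. It was 1.199 without the same overlapping genes and 1.09 to 1.12 with 1 library left out. The cause was not tested. Over single genes and settings, 1354 values kept the call, 14 lost it (MRPL16, MRPL23, MRPL41, MRPL45), 11 gained it and 1 reversed (MRPL45). A reversal was counted only where either fit made a call. The 1354 can thus include genes without a call whose direction changed. Same-numbered libraries did not deviate together (correlations of -0.0071, -0.018 and -0.043 over genes), so the numbers are not taken as pairs; with a replicate block 71 genes were called lower, 0 higher and 10090 of all genes either way, and the block changed the call of none of the 77 genes. The low counts of MRPS24, MRPL53 and MRPL38 limit what can be said of them, and all share exon bases with a gene on the same strand.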
